A study of Mus musculus with 6 samples.

Results

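Endothelial identity genes were followed in RNA from whole glomeruli, the filtering units of the kidney, in which fenestrated capillaries lie against podocytes. The set held 36 genes, given by symbol, and 35 of them were found among the 24035 rows of the deposited table that carry a gene symbol. The one not found was Exoc3l2, a member of an exocyst-related family, which was sought by its symbol and its RefSeq synonyms. All 35 passed the expression filter (a 6-library mean RPKM of 0.5 or more, where RPKM counts reads per kilobase of gene and scales them to the library's counted reads).

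The study compared 3 control libraries from Klf4 fl/fl mice with 3 knockout libraries from Podocin-Cre Klf4 fl/fl mice, all FVB/N, so both groups carry the floxed alleles and Cre is present in the knockouts alone. Podocin-Cre is active in podocytes, no group carries Cre alone, and the labels give neither an age nor a separate animal for each library, so p-values measure the spread between libraries, part of which may be technical. Glomeruli were loaded with iron oxide by perfusion and pulled out with a magnet, and such preparations can also hold podocytes, mesangial cells, parietal epithelium and leukocytes. Klf4, the zinc-finger transcription factor targeted, stood at 21.5, 44.3 and 49.8 RPKM in controls and 29.4, 40.3 and 41.4 RPKM in knockouts, which overlap. This gene-level value sums all cell types of the glomerulus, endothelium included, and does not separate a deleted from an intact allele, so it did not check the labels. Where 3 values are given for a group here and below, they are replicates 1, 2 and 3 in that order.

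Endothelial cells keep their identity through a network of transcription factors, chiefly of the ETS, SOXF and GATA families with Tal1, which act on genes for junctions, surface glycoproteins and vascular receptors. Glomerular endothelium is a specialised form: its fenestrae lack the diaphragm that the protein of Plvap builds in other fenestrated capillaries, and it depends on VEGF from the neighbouring podocytes. Ehd3, a membrane-trafficking ATPase, is a marker of this endothelium within the kidney. The members were therefore read as a glomerular class (Ehd3, Emcn and Nostrin, which are strongly expressed in glomerular capillaries) and 32 general endothelial genes found in the table, with Plvap watched on its own. This division is an assignment from background knowledge; Emcn and Nostrin are expressed in other vessels as well.

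Libraries held 38936993 to 58272424 counted reads, and members had between 416 reads (the lowest, for Aplnr) and 130966 reads (the highest, for Eng) in a library. Log2 values correlated at 0.969 to 0.981 within groups and 0.891 to 0.949 between groups. Endothelial RNA was abundant in all libraries: the 35 members summed to 3579, 4990 and 4402 RPKM in controls and to 3229, 2719 and 4055 RPKM in knockouts. Knockout replicate 3 had the highest value of its group for 33 of 35 members and knockout replicate 2 the lowest for 25. Among controls, replicate 2 was highest for 28 members and replicate 1 lowest for 29, so most members moved together from library to library within a group.

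The endothelial set as a whole showed few called changes: Aplnr rose, Arhgef15 fell, and the other 33 members did not pass the test. That is 5.71% of the 35, where 13.5% of all 13912 genes tested were called (9.98% higher and 3.48% lower). The test was limma on log2(RPKM + 0.5) with Benjamini-Hochberg adjustment over all genes tested and a threshold of 0.05; log2 changes below are knockout minus control on that scale, with a standard error (SE), and levels are group means in RPKM ± SD, each over n = 3 libraries. Of the 35 members, 25 had a log2 change below 0 (71.4%, against 39.2% of all genes tested), and the median was −0.26, beside 0.10 over all genes. The members' median became −0.066 when control replicate 2 was left out, −0.11 when knockout replicate 2 was and −0.42 when knockout replicate 3 was. Groups did not overlap for 10 members (28.6%, background 35.1%): 7 were lower in every knockout library (20%, background 11.4%) and 3 were higher (8.57%, background 23.7%). With TMM factors, a rescaling on the genes that change least, Aplnr was higher and 6 members were lower (Ehd3, Emcn, Nostrin, Icam2, Arhgef15 and Gata2), beside 7.26% of all genes higher and 6.5% lower. Under quantile normalization Aplnr alone was called, beside 6.1% higher and 5.74% lower. Without knockout replicate 3, Aplnr was higher and 5 members were lower, the same as with TMM factors except Emcn, beside 10.8% higher and 4.45% lower. Values are relative to all RNA in the preparation, and in whole glomeruli fewer endothelial cells and less RNA per cell cannot be told apart.

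**Figure D1:**
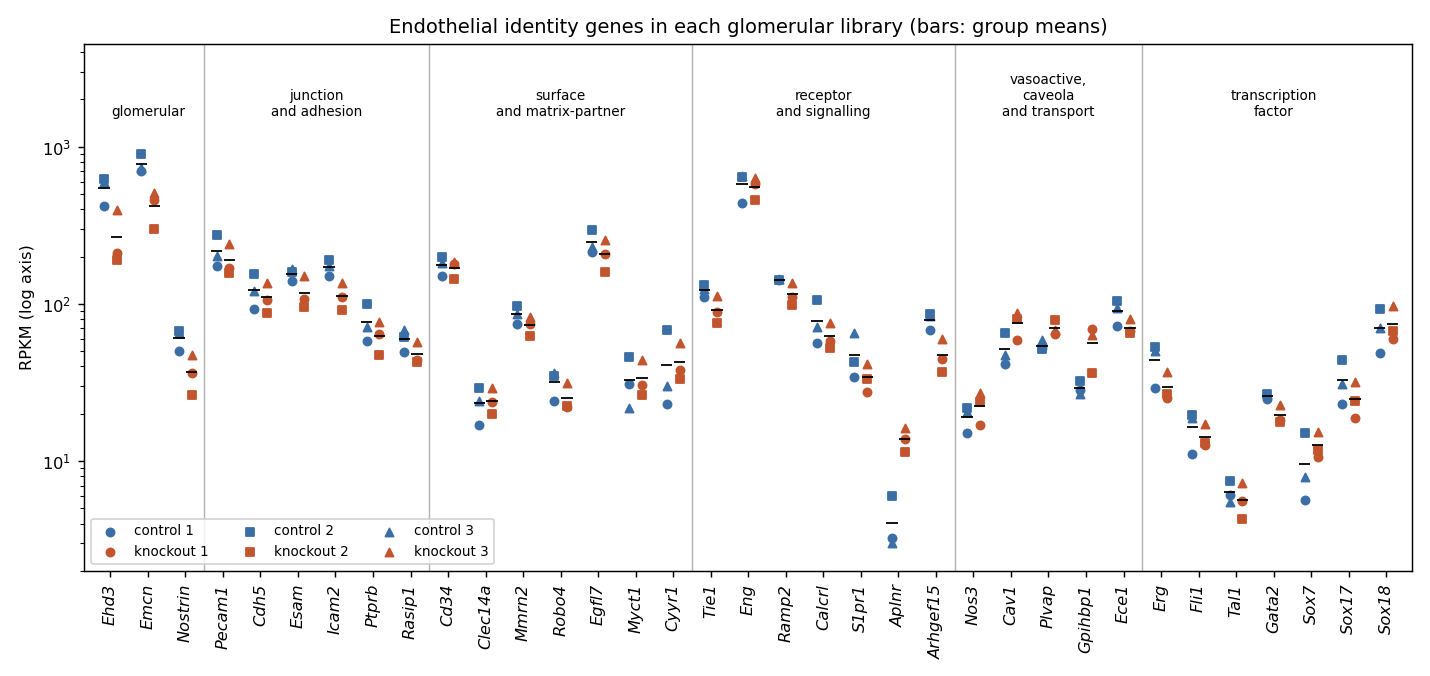
RPKM on a log axis (vertical) of each of the 35 endothelial identity genes (horizontal, by role class) in the 3 control (blue) and 3 knockout (orange) libraries, with marker shapes for replicates 1 to 3 and black bars for group means. Ehd3, Emcn and Nostrin sit lower in all knockout libraries, Aplnr sits higher, and most other genes overlap.

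The glomerular class had the lowest changes of any role class, a median log2 change of −0.91, although none of its 3 genes passed the test (−0.68 to −1.06 without 1 library). Ehd3 (chromosome 17, 73804134 to 73832094) stood at 419, 619 and 598 RPKM in controls and at 211, 191 and 394 RPKM in knockouts. Every knockout library was below every control library, and knockout replicate 3 was nearest to the controls. The means were 545 ± 110 and 265 ± 112 RPKM, 2.05-fold apart (log2 change −1.09, SE 0.32, adjusted p = 0.0641). Emcn (chromosome 3, 137341067 to 137432185) encodes endomucin, an endothelial sialomucin that limits leukocyte adhesion. It was the most abundant member in controls, at 704, 899 and 729 RPKM against 457, 298 and 510 RPKM in knockouts, again without overlap (−0.91, SE 0.28, adjusted p = 0.0711). Nostrin (chromosome 2, 69135800 to 69189330) encodes an adaptor that binds endothelial nitric oxide synthase and promotes its uptake from the membrane. Its values were 50.2, 67.6 and 64.9 RPKM in controls and 36.5, 26.3 and 47.2 RPKM in knockouts, with no overlap (−0.75, SE 0.23, adjusted p = 0.0682). Unadjusted p-values from limma were 0.0102, 0.0122 and 0.0113 for Ehd3, Emcn and Nostrin.

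Without knockout replicate 3, Ehd3 and Nostrin passed (adjusted p = 0.017 and 0.0273), and with TMM factors all 3 passed (0.0444, 0.0498 and 0.0431). Emcn also passed in limma without the mean-variance trend (0.0427) and with voom on reads recovered from the RPKM values (0.0459). Over all alternatives the adjusted p ran from 0.017 to 0.236 for Ehd3, 0.0427 to 0.251 for Emcn and 0.0273 to 0.213 for Nostrin.

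The 250 bases before the annotated start of the 3 glomerular genes are shown because these members were lower together and the ETS factors Erg and Fli1 of this set recognise a GGAA core. Sequences are from RefSeq on GRCm38.p6, forward strand, at chr17:73804591-73804840 for Ehd3, chr3:137340828-137341077 for Emcn and chr2:69135550-69135799 for Nostrin. The RefSeq starts used for Ehd3 and Emcn lie inside the GENCODE gene bounds given above. Capitals mark a longer form of that core, the letters GGAAG or, on the other strand, CTTCC.
Ehd3: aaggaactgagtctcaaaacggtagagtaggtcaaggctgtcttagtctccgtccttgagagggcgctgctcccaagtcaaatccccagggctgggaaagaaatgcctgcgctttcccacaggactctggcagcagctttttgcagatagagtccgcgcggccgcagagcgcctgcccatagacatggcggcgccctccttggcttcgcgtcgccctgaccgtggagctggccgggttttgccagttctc
Emcn: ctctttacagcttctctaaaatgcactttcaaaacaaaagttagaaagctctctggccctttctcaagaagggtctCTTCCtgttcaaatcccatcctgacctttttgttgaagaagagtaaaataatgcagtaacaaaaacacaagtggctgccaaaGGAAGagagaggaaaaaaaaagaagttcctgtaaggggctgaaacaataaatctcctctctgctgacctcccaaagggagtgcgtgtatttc
Nostrin: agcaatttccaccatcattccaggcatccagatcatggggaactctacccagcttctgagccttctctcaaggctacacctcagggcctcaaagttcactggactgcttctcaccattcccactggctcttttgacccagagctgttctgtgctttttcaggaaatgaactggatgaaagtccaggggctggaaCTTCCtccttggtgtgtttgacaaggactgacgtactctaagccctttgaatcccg
The Emcn window held 2 such matches and the Nostrin window 1, and these 5 letters were not in the Ehd3 window. The shorter core, GGAA or TTCC, which the longer form contains, was found 3 times in the Ehd3 window, 4 times in that of Emcn and 7 times in that of Nostrin, and it was in 26 of 29 member windows (89.7%) and 93.4% of all windows. RefSeq promoters were found for 19 of the 36 members, in 29 windows, of which 18 held the longer form (62.1%), and 64.1% of all 32851 promoter windows of the same length held it too. A SOX motif, AACAAT or its complement ATTGTT, was in 3 member windows (10.3%, against 9.42% of all), the Emcn window among them. The GATA motif AGATAA or TTATCT was in 4 member windows (13.8%, against 9.99% of all) and in none of the 3 windows printed. The SOX and GATA letters contain no other motif searched, and a match is a description of letters only.

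Set against the general members of the same library, the glomerular class was lower in every knockout. Its share of the summed RPKM of the members was 32.8%, 31.8% and 31.6% in controls and 21.8%, 19% and 23.5% in knockouts. The 32 general members had a median log2 change of −0.21. Leaving out control replicate 2 made it −0.054 and leaving out knockout replicate 2 made it −0.086, while it was −0.35 when control replicate 1 was dropped and −0.36 when knockout replicate 3 was. Their sums were 2406, 3405 and 3010 RPKM in controls and 2524, 2203 and 3103 RPKM in knockouts, which overlap. Outside the member set the contrast was smaller. The median log2 change was −0.59 for 6 further glomerular endothelial genes and −0.48 for 14 further general endothelial genes.

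The ratio of Ehd3 to Pecam1, a general junction gene, was 2.41, 2.25 and 2.95 in controls and 1.25, 1.21 and 1.65 in knockouts. All knockout ratios were below all control ratios (means 2.54 ± 0.366 and 1.37 ± 0.241, n = 3 each; two-sided exact permutation p = 0.1, the smallest that 3 against 3 libraries allow). Emcn to Pecam1 was 3.64 ± 0.397 in controls and 2.24 ± 0.411 in knockouts, and Nostrin to Pecam1 was 0.285 ± 0.0371 and 0.193 ± 0.0241, both without overlap (exact permutation p = 0.1 each). Cdh5 to Pecam1, a ratio of general genes, was 0.566 ± 0.03 in controls and 0.582 ± 0.0361 in knockouts, with overlap (exact permutation p = 0.7). These are 6 ratios in one family, with Aplnr and Plvap below. Adjusted over the family, p was 0.15 for Ehd3, Emcn, Nostrin and Aplnr, 0.36 for Plvap and 0.7 for Cdh5, and none can pass a threshold of 0.05 in this design. When each library was centred on the median of the general members, Ehd3 stood 3.07, 3.20 and 3.15 log2 units above that median in controls and 1.85, 2.08 and 2.56 above it in knockouts. In a limma fit centred in this way, where 8.76% of all genes were called higher and 1.8% lower, the log2 change of Ehd3 was −0.98 (SE 0.36, adjusted p = 0.0807), that of Emcn −0.79 (SE 0.38, adjusted p = 0.229) and that of Nostrin −0.64 (SE 0.28, adjusted p = 0.182). Relative to the general genes, each of the 3 was lower in every knockout than in every control and none passed the test. Among the general members themselves, Arhgef15, Icam2, Esam, Tie1 and Gata2 were also lower in every knockout on this relative scale (differences of −0.65, −0.50, −0.30, −0.31 and −0.30), and Cav1, Gpihbp1 and Aplnr were higher (0.67, 1.00 and 1.80). The share of all genes without overlap was taken on the RPKM scale alone (35.1%), so the relative scale has no such background.

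**Figure D2:**
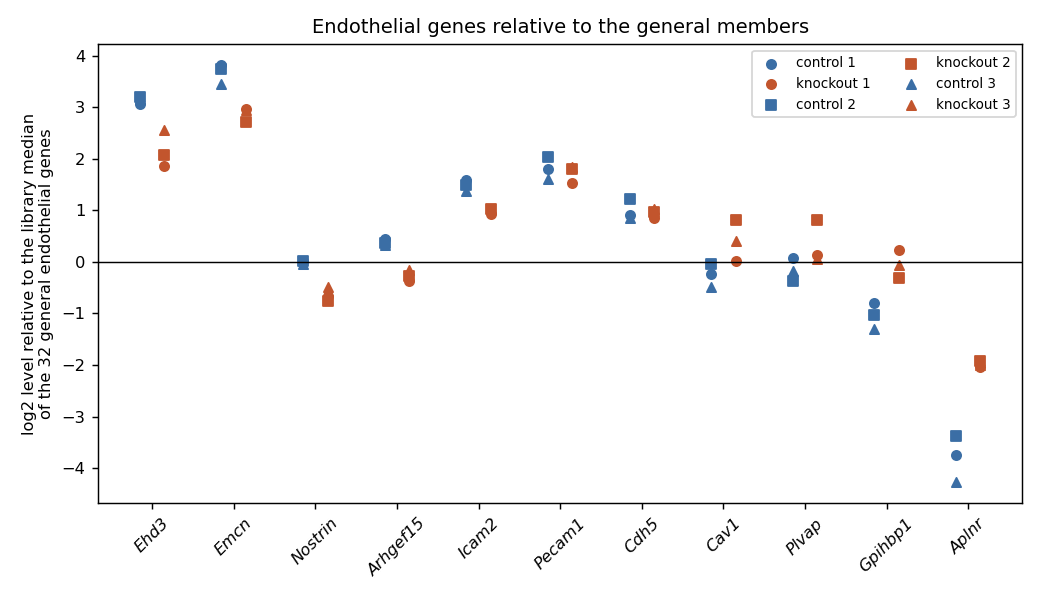
Log2 level relative to the library's median over the 32 general endothelial genes (vertical) for a selection of members, made after their values were seen (horizontal), with blue controls, orange knockouts and marker shapes for replicates 1 to 3. Of those plotted, Ehd3, Emcn, Nostrin, Arhgef15 and Icam2 are lower in all knockouts, Pecam1, Plvap and Cdh5 overlap, and Cav1, Gpihbp1 and Aplnr are higher in all knockouts.

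Podocyte markers and part of the mesangial markers were lower in the same libraries. Of 10 podocyte markers 7 fell, with sums of 3096 to 6041 RPKM in controls and 854 to 2181 RPKM in knockouts. Of 8 mesangial markers 4 fell, with sums of 1331 to 1887 and 857 to 1215 RPKM. Over all genes tested, 3.48% were called lower. The podocyte genes of smallest p were Synpo, Magi2, Wt1 and Plce1, with log2 changes of −1.96, −2.01, −1.84 and −1.82 (adjusted p = 6.98e-03, 8.45e-03, 9.98e-03 and 0.0146). The mesangial genes that fell were Sfrp2, Ptn, Art3 and Hopx (−1.41, −1.03, −1.02 and −0.66, adjusted p = 0.0166, 0.0281, 0.0321 and 0.0417). Gata3, Pdgfrb and Itga8 did not pass (−0.97, −0.54 and −0.72), and Serpine2, at 372 ± 47.4 RPKM in controls and 419 ± 66.6 RPKM in knockouts, had a change above 0 and did not pass (0.17). No marker of either list was at 0. Their part in the glomerular endothelial values was not tested. Knockout replicate 3, which had the highest Ehd3 of the knockouts, also had the highest Nphs1, the slit diaphragm gene for nephrin (118 RPKM, beside 98.9 and 35.2 RPKM in knockout replicates 1 and 2 and 238 to 412 RPKM in controls). That library was the highest of its group for 33 of the 35 members, so the match is not particular to Ehd3.

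Junction and adhesion genes had a median log2 change of −0.30, with all 6 below 0 and none past the test. Pecam1 encodes CD31, an adhesion molecule also found on platelets and leukocytes. It stood at 174, 275 and 203 RPKM in controls and 170, 158 and 239 RPKM in knockouts, which overlap (−0.20, SE 0.24, 95% interval −0.76 to 0.36). Cdh5 encodes VE-cadherin, the cadherin of endothelial junctions. Its values were 93, 156 and 121 RPKM in controls and 106, 87.7 and 136 RPKM in knockouts, which also overlap (−0.16, SE 0.24, 95% interval −0.71 to 0.39). Icam2, a constitutive endothelial ligand of leukocyte integrins, was the junction gene whose groups did not overlap. It stood at 150, 189 and 173 RPKM against 111, 91.6 and 135 RPKM (−0.61, SE 0.18, adjusted p = 0.0699). Icam2 passed in 2 of 16 alternatives, without knockout replicate 3 (adjusted p = 0.0365) and with TMM factors (0.0391). Its highest adjusted p among the alternatives was 0.407. Esam, a tight junction adhesion molecule, had means of 156 ± 14.9 and 118 ± 28.8 RPKM (−0.42, SE 0.20). Ptprb, the phosphatase VE-PTP that associates with VE-cadherin and Tie2, had means of 76.4 ± 21.3 and 62.6 ± 14.6 RPKM. Rasip1, a Rap1 effector needed for vessel lumens, had means of 59.8 ± 9.37 and 47.9 ± 8.22 RPKM and shares exon bases with other annotated genes.

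Surface glycoproteins and their matrix partners had the class median nearest 0, −0.066. All 7 overlapped between the groups and none passed. Cd34, a sialomucin of capillaries and haematopoietic progenitors, had means of 177 ± 24.9 and 169 ± 22 RPKM (95% interval −0.48 to 0.35). Clec14a, a C-type lectin that binds the matrix protein multimerin 2, had means of 23.4 ± 6.14 and 24.2 ± 4.57 RPKM, and Mmrn2, which encodes that ligand, had means of 85.8 ± 11.4 and 73.5 ± 10.4 RPKM. Robo4, a guidance receptor that stabilises vessels, had a log2 change of −0.32 (SE 0.21). Egfl7, a secreted endothelial factor whose gene hosts miR-126, had one of −0.26 (SE 0.23). Myct1, a membrane protein gene that ETS factors control in endothelium, had one of 0.059 (SE 0.29). Clec14a and Myct1 were below 0 with TMM factors (−0.084 and −0.092). Cyyr1, a small membrane protein, had the widest spread, with 23.2, 68.7 and 29.9 RPKM in controls and 38.2, 33.2 and 56.2 RPKM in knockouts (0.19, SE 0.39). Control replicate 2 alone exceeded all other libraries there.

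Both called members were signalling genes. Aplnr (chromosome 2, 85136225 to 85139923) encodes the apelin receptor, a G protein-coupled receptor of sprouting and remodelling endothelium. It was the least abundant member in controls, at 3.24, 5.98 and 3 RPKM, and stood at 13.8, 11.4 and 16.2 RPKM in knockouts. Every knockout library was above every control library, and the means of 4.07 ± 1.66 and 13.8 ± 2.39 RPKM were 3.39-fold apart (1.69, SE 0.26, adjusted p = 8.67e-03). The call was kept in all 16 alternatives run, with adjusted p from 1.24e-04 to 0.04. The ratio of Aplnr to Pecam1 was 0.0184 ± 0.00349 in controls and 0.0738 ± 0.00694 in knockouts, with no overlap (exact permutation p = 0.1). Apln, which encodes apelin, a ligand of this receptor and a gene of endothelial tip cells, rose in the same libraries. It stood at 0.594, 0.532 and 0.375 RPKM in controls and 4.24, 6.55 and 7.03 RPKM in knockouts, an 11.9-fold difference (2.66, SE 0.22, adjusted p = 2.06e-03). Which cells held either RNA was not tested.

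Arhgef15 (chromosome 11, 68943155 to 68957480) encodes a guanine nucleotide exchange factor of endothelium that acts in vessel growth in mice. It fell from 67.8, 86.3 and 83.4 RPKM in controls to 44.6, 37.1 and 59.8 RPKM in knockouts. The groups did not overlap, and the means of 79.2 ± 9.93 and 47.2 ± 11.5 RPKM were 1.68-fold apart (−0.76, SE 0.20, adjusted p = 0.0442). The call was kept in 5 of 16 alternatives (adjusted p 0.0175 to 0.179). It was lost without each single library except knockout replicate 3 (0.0617, 0.107 and 0.115 without control replicates 1, 2 and 3, and 0.122 and 0.162 without knockout replicates 1 and 2). It was also lost with no filter (0.0678), a filter at 2 RPKM (0.0525), quantile normalization (0.0586), no mean-variance trend (0.052), the replicate block (0.0866) and centring on the general members (0.179).

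The other receptors did not pass. Eng, which encodes endoglin, a co-receptor for BMP9 and TGF-beta, stood at 436, 646 and 647 RPKM in controls and 575, 457 and 629 RPKM in knockouts. Its groups overlapped (means 576 ± 121 and 554 ± 88.1 RPKM, 95% interval −0.66 to 0.57), and it ranked above Emcn and Ehd3 in knockouts, where it was below Emcn in controls. Tie1, an orphan partner of the angiopoietin receptor Tek, had means of 122 ± 10.3 and 92.1 ± 18.9 RPKM (−0.42, SE 0.18). Ramp2 and Calcrl encode the accessory protein and the receptor that together bind adrenomedullin. Ramp2 stood at 142, 142 and 144 RPKM in controls and at 110, 98.9 and 135 RPKM in knockouts, without overlap (−0.32, SE 0.15, adjusted p = 0.207). Calcrl had means of 78 ± 25.4 and 62.1 ± 12.5 RPKM, with overlap (−0.30, SE 0.25). S1pr1, the sphingosine 1-phosphate receptor of endothelium and lymphocytes, had means of 47.5 ± 16 and 34.2 ± 7.15 RPKM (−0.44, SE 0.25).

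Genes of nitric oxide synthesis, caveolae and transcytosis were the one class with a positive median, 0.38, and 4 of its 5 measured genes had a change above 0. None passed. Plvap, the diaphragm protein that mature glomerular endothelium lacks, stood at 52.3, 51.5 and 59.1 RPKM in controls and 64.6, 78.9 and 68.7 RPKM in knockouts. The groups did not overlap, the means were 54.3 ± 4.17 and 70.7 ± 7.38 RPKM, and the difference was 1.3-fold (0.38, SE 0.13, adjusted p = 0.101). Relative to Pecam1 the groups overlapped (0.26 ± 0.0632 and 0.389 ± 0.107, exact permutation p = 0.3). Gpihbp1 encodes the endothelial anchor of lipoprotein lipase. It stood at 28.2, 32.5 and 26.8 RPKM in controls and 69, 36.2 and 63.9 RPKM in knockouts, without overlap, with knockout replicate 2 close to the controls (0.89, SE 0.24, adjusted p = 0.0517). It passed in 2 of 16 alternatives, without knockout replicate 2 (adjusted p = 0.0147) and when centred on the general members (0.0191). The highest adjusted p among the alternatives was 0.145. Cav1, the caveolar coat protein, which fibroblasts, smooth muscle and some epithelia also make, had means of 51.4 ± 12.3 and 75.3 ± 14.8 RPKM, with overlap (0.55, SE 0.22, adjusted p = 0.133). Nos3, endothelial nitric oxide synthase, had means of 19.2 ± 3.59 and 22.5 ± 5.13 RPKM (0.21, SE 0.21). Ece1, the endothelin-converting enzyme, had means of 90.1 ± 16 and 70.8 ± 8.18 RPKM (−0.34, SE 0.17).

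Transcription factors of endothelial identity had a median log2 change of −0.18, and none of the 7 passed. Erg, the ETS factor most tied to endothelial identity, stood at 29.4, 53.5 and 50.1 RPKM in controls and 25.1, 26.9 and 36.7 RPKM in knockouts. Control replicate 1 lay among the knockouts (−0.55, SE 0.25, 95% interval −1.14 to 0.041, adjusted p = 0.191). Fli1, the related ETS factor of vessels and blood cells, had means of 16.6 ± 4.81 and 14.3 ± 2.58 RPKM. Gata2, a zinc-finger factor of endothelium and blood stem cells, was the member of this class without overlap. It stood at 24.8, 26.7 and 26.7 RPKM in controls and 18.4, 17.7 and 22.7 RPKM in knockouts (−0.41, SE 0.13, adjusted p = 0.0787). It passed in 2 of 16 alternatives, without knockout replicate 3 (adjusted p = 0.0371) and with TMM factors (0.0294). The highest adjusted p among the alternatives was 0.668. Tal1, a bHLH factor of blood and endothelial precursors, was low in both groups, at 6.37 ± 0.99 and 5.7 ± 1.46 RPKM.

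The SOXF factors Sox7, Sox17 and Sox18, which act together in vessel and arterial development, did not share a direction, and Sox18 was below 0 with TMM factors (−0.053). Sox7 had means of 9.56 ± 4.94 and 12.6 ± 2.47 RPKM (0.47, SE 0.33). Sox17, the arterial member, had means of 32.7 ± 10.4 and 25 ± 6.58 RPKM (−0.37, SE 0.27). Sox18 was the most abundant of them, at 70.7 ± 21.6 and 75 ± 19.9 RPKM (0.10, SE 0.27). All 3 overlapped between the groups.

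**Figure D3:**
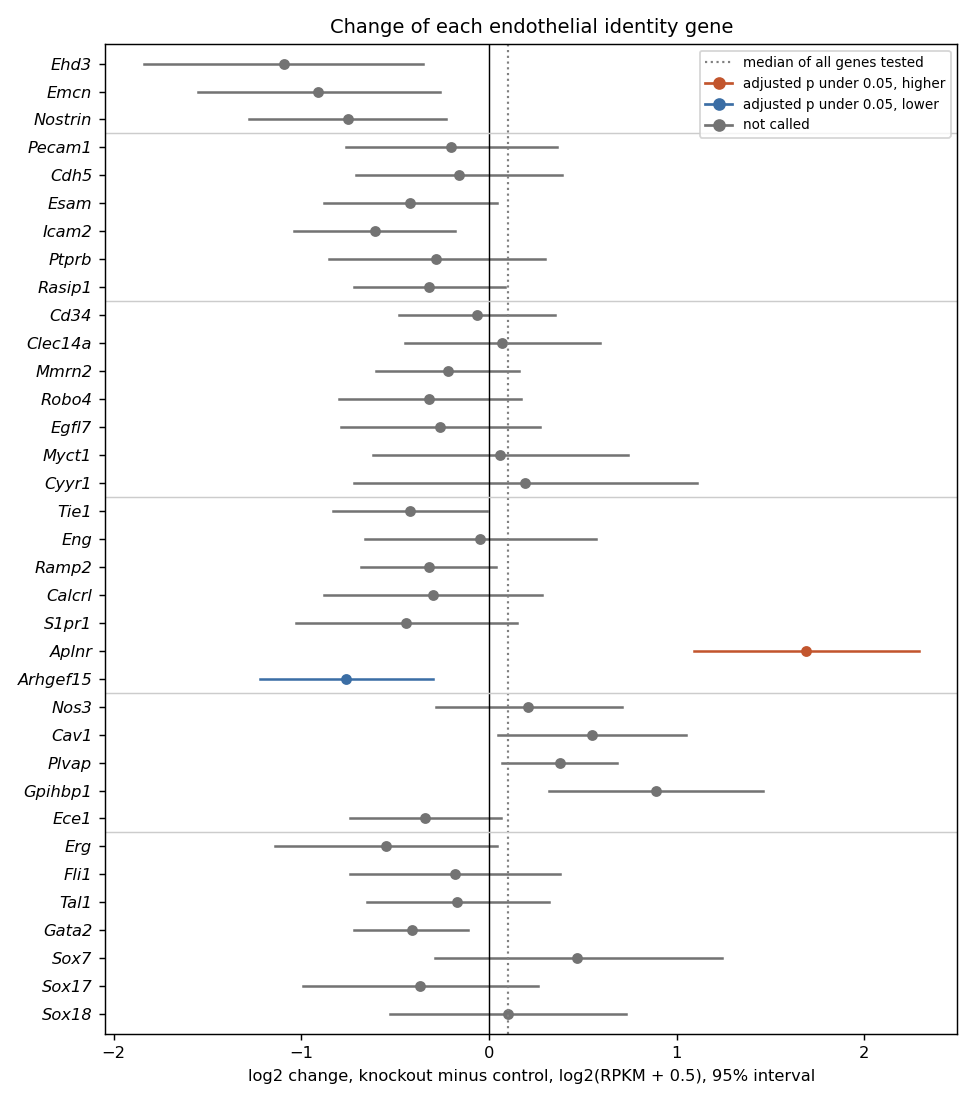
Log2 change, knockout minus control on the log2(RPKM + 0.5) scale, of each of the 35 members (vertical, by role class) with 95% intervals; orange marks a call higher, blue a call lower and grey no call, and the dotted line is the median of all genes tested (0.10). Aplnr (1.69) and Arhgef15 (−0.76) are the coloured genes, and the intervals of Ehd3, Emcn and Nostrin end below 0.

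Other endothelial genes were taken from lists by vessel type. Of 6 further genes of glomerular endothelium, none passed and 5 had a change below 0 (median −0.59). Plat, which encodes tissue plasminogen activator, stood at 1460, 1319 and 1226 RPKM in controls and 565, 564 and 1127 RPKM in knockouts (−0.90, SE 0.36, adjusted p = 0.135), again with knockout replicate 3 nearest the controls. Tbx3, a T-box factor, differed by −0.89 on the log2 scale (SE 0.25, adjusted p = 0.0591), and Gata5, a GATA factor, by −0.62 (SE 0.23, adjusted p = 0.114). Cyp26b1, a retinoic acid hydroxylase, was the gene with a change above 0, at 88.9 ± 18.8 RPKM in controls and 121 ± 12.4 RPKM in knockouts (0.46, SE 0.18, adjusted p = 0.136).

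Among 14 further general endothelial genes, 2 fell and 1 rose, beside 3.48% of all genes lower and 9.98% higher, and the median was −0.48. Tmem204 fell from 211 ± 38 to 85.5 ± 22.8 RPKM (−1.32, SE 0.24, adjusted p = 0.0143). Cldn5, a claudin of endothelial tight junctions that podocytes also make, fell from 120 ± 61.3 to 38.6 ± 8.39 RPKM (−1.52, SE 0.37, adjusted p = 0.0387). Cd93, a lectin-like receptor of endothelium and myeloid cells, averaged 6.89 ± 3.01 RPKM in controls and rose to 18.5 ± 4.4 RPKM (1.41, SE 0.30, adjusted p = 0.0237). Kdr and Flt1, the VEGF receptors, had log2 changes of −0.76 (SE 0.30) and −0.75 (SE 0.26) and did not pass. Vwf, von Willebrand factor, which glomerular capillaries hold little of, stood at 0.499, 0.519 and 0.387 RPKM in controls and 1.06, 1.23 and 0.808 RPKM in knockouts (0.66, SE 0.19, adjusted p = 0.0626).

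Most genes of activated endothelium were higher in knockouts. Of 6 tested, 4 rose and none fell, with a median log2 change of 1.85, beside 9.98% of all genes called higher. Sele, which encodes E-selectin, a leukocyte adhesion molecule made by endothelium on activation, stood at 3.37, 2.35 and 1.81 RPKM in controls and 16.5, 13.1 and 13.5 RPKM in knockouts. The groups did not overlap, a 5.72-fold difference (2.33, SE 0.21, adjusted p = 2.06e-03). Icam1 rose 3.96-fold (1.94, SE 0.17, adjusted p = 2.06e-03) and Vcam1 rose 3.54-fold (1.77, SE 0.32, adjusted p = 0.0137). Both are adhesion molecules that epithelial and mesangial cells can make too, and Apln was the remaining gene. Selp, P-selectin, had 3 to 106 reads per library, was below the filter and was not tested. It stood at 0.0286, 0.0221 and 0.0224 RPKM in controls and 0.681, 0.5 and 0.384 RPKM in knockouts, without overlap. Angpt2 and Esm1, genes of sprouting endothelium, did not pass (−0.32 and −0.16).

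**Figure D4:**
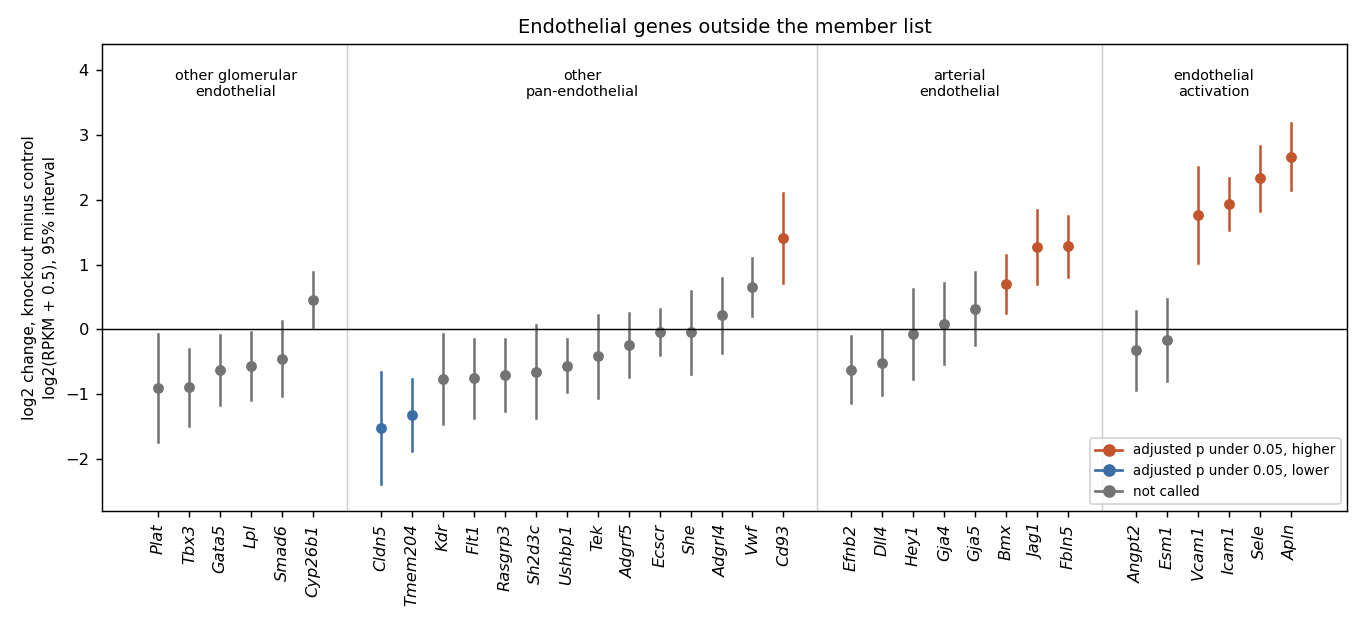
Log2 change, knockout minus control on the log2(RPKM + 0.5) scale (vertical), with 95% intervals, of endothelial genes outside the member set (horizontal, by list, in order of change); orange marks a call higher, blue a call lower and grey no call. The activation genes Vcam1, Icam1, Sele and Apln lie between 1.77 and 2.66, and 5 of 6 glomerular genes lie below 0.

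Leukocyte markers were higher in the same libraries: 6 of 7 tested rose, beside 9.98% of all genes. Sums over the list were 18.3 to 40.4 RPKM in controls and 78.4 to 209 RPKM in knockouts, with none at 0. Cd68 and Adgre1, both of macrophages, rose 5.01-fold (2.01, SE 0.24, adjusted p = 4.28e-03) and 14.7-fold (1.98, SE 0.31, adjusted p = 9.01e-03). C1qa and Lyz2, also of myeloid cells, rose by log2 changes of 3.51 and 3.04 (SE 0.64 each, adjusted p = 0.015 and 0.024). Their part in the activation genes, and in members that blood cells share, was not tested. Among those shared members, Pecam1, Cd34, Fli1, Tal1 and S1pr1 had log2 changes between −0.44 and −0.066.

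Beside 9.98% of all genes tested called higher and 3.48% lower, arterial genes had 3 of 8 higher and none lower (median 0.20). These were Fbln5, an elastic fibre protein (1.28, SE 0.20, adjusted p = 9.56e-03), Jag1, a Notch ligand (1.27, SE 0.24, adjusted p = 0.0174), and Bmx, a kinase of arterial endothelium (0.70, SE 0.19, adjusted p = 0.049). Fbln5 and Jag1 are made by other cells as well. The other arterial genes did not pass and did not share a direction. Gja5, the connexin of arterioles, had a log2 change of 0.32 (SE 0.24), and Gja4 had one of 0.084. Efnb2 (−0.62, SE 0.22, adjusted p = 0.11), Dll4 (−0.51, SE 0.22, adjusted p = 0.161) and Hey1 (−0.073) were below 0. Of 3 genes listed for peritubular capillaries, Npr3, a natriuretic peptide clearance receptor, was lower (−1.57, SE 0.37, adjusted p = 0.0326). Igfbp3 (0.66) and Igfbp5 (−0.53) were not called, and Igfbp5 stood at 969, 1593 and 1407 RPKM in controls. Which cells of the preparation held these RNAs was not tested, so the fall of Npr3 was not read as one of that vessel type. Venous genes Nr2f2 and Ephb4 did not pass (0.15 and −0.22). Of the lymphatic list Flt4 was tested and did not pass (0.18), with Ccl21a listed at 0 and Prox1 and Lyve1 at most 0.694 RPKM in any library.

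Blood and tubule markers were measured as well. Of 4 platelet markers tested, Gp1bb was lower (−1.44, adjusted p = 0.0291), beside 3.48% of all genes called lower. Pf4 (1.14, adjusted p = 0.0582), Itga2b (−0.10) and Ppbp (−0.049) did not pass. Sums over the platelet list were 5.86 to 9.9 RPKM in controls and 5.45 to 9.13 RPKM in knockouts. The 4 globin genes sought were listed at 0 in all libraries. Alas2 and Slc4a1 of red cells had reads in every library and did not pass (−0.88 and 0.51). The globin values were therefore not read as absence of red cell RNA, and their cause was not tested. None of 6 proximal tubule markers passed, Pck1 and Slc5a2 having log2 changes of −1.12 and 0.97, with list sums of 883 to 1869 and 816 to 1520 RPKM.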

How the data were processed

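RNA-seq of isolated glomeruli was used, as RPKM values per gene that the authors deposited. The tools listed per the submitters' processing notes are STAR, featureCounts, edgeR and FastQC, with the build mm10. No version, annotation or strand setting is given for them here, so reads of overlapping or antisense genes cannot be told apart. By GENCODE vM21 (GRCm38), 8 of the 36 members share exon bases with another gene, 6 of them antisense: Rasip1, Cd34, Egfl7, Eng, Nos3 and Sox17.

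From these values, whole reads and gene lengths were recovered by a search for the smallest whole reads that give the ratios between libraries (100% of 24062 rows within 0.001 read). Libraries held 38936993 to 58272424 reads. Each of 27 rows with a date in place of a symbol was left out. Genes averaging 0.5 RPKM or more were tested with limma 3.58.1 in R 4.3.3 on log2(RPKM + 0.5) with a mean-variance trend. The fit was also run on simulated data, drawn independently for each library with a fixed spread setting for all genes. That run cannot vouch for the test where genes move together between libraries, as the members did here. Older symbols were matched through RefSeq synonyms. The planned count tests were not run, and voom on the recovered reads was run in their place. Alternatives changed the pseudocount (0.1 and 1), the filter (none and 2 RPKM), the scaling and the libraries used.

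The members and lists were chosen with earlier results of these data known. Named are all members by role class and, from each other list, the 2 genes of smallest p and called genes up to 4; further genes were named after their values were seen.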

Additional observations from a re-analysis of the deposited data

How the results depend on the processing

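Across all genes 1873 were called. The count was 1191 with a filter at a mean of 2 RPKM, and it was 598 to 2114 without 1 library, lowest without knockout replicate 2. Of the members 2 were called. The count was 1 with no filter, with the 2 RPKM filter and under quantile normalization, 7 with TMM factors, and 1 to 6 without 1 library, highest without knockout replicate 3. TMM factors moved the median log2 change of all genes from 0.10 to −0.044 and of the members from −0.26 to −0.41, and quantile normalization moved them to −0.048 and −0.33. Higher genes made up 74.2% of the calls, 52.8% with TMM factors and 51.5% under quantile normalization. Causes of these shifts were not tested. The medians of all members, of the glomerular and of the general members moved by less than the spread between libraries in all alternatives run, as did the glomerular median narrowed to Ehd3 alone (−1.09). That spread, an SD within groups, was 0.26, 0.46 and 0.27 log2 units in that order. For all members (−0.26) and the general members (−0.21) it was about as large as the median. For them this measure cannot separate a stable median from one near 0.

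The labels number replicates 1 to 3 in both groups without saying that the numbers pair libraries. Deviations from group means correlated at 0.175, −0.215 and −0.461 in same-numbered libraries and at −0.381 to 0.504 in the others. Deviations cancel within a group, so these values depend on one another and cannot decide whether libraries were paired. No pairing was assumed. With the replicate number as a block, 811 genes and 1 member were called.

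Of 35 members, 27 kept their sign in all 16 alternatives run; the 8 that turned had log2 changes between −0.17 and 0.19. With TMM factors the log2 change was −0.084 for Clec14a, −0.092 for Myct1 and −0.053 for Sox18, and centred on the general members it was 0.048 for Cd34 and 0.068 for Eng. Without 1 library the log2 change ran from −0.35 to 0.026 for Cdh5, −0.18 to 0.045 for Cd34, −0.14 to 0.24 for Clec14a, −0.20 to 0.33 for Myct1, −0.13 to 0.65 for Cyyr1, −0.24 to 0.086 for Eng, −0.34 to 0.0022 for Tal1 and −0.14 to 0.31 for Sox18. The voom fit and the centred fit were chosen after seeing the data. The planned quasi-likelihood and size-factor count tests on recovered reads were not run. Each member had at least 416 reads in every library, and with 3 libraries a group the number of libraries limits the precision.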
